A study of Drosophila melanogaster with 6 samples.

Results

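The fourth chromosome of Drosophila melanogaster is the smallest autosome, and 40 of its named genes were followed here. They were chosen by gene symbol from the authors' deposited comparison table, in which all 40 were kept, out of 17493 counted gene identifiers and 10526 tested genes. The values that the choice used are the counts behind that table's low-count filter. The gene symbols were picked with earlier results of this comparison known, so counts and medians over the 40 genes are descriptions and carry no test. The annotation places all 40 on chromosome 4, where 109 counted identifiers and 87 tested genes lie in all. The other 47 tested genes of the chromosome, which include further named genes such as ci and pan, serve as its remaining part.

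RNA was sequenced from whole embryos aged 10 to 15 hours of 2 fly lines edited at sgg (shaggy), which encodes the fly's glycogen synthase kinase 3. The mutant line, homozygous sgg[isoD-CI-DS-SFS], has changes at 2 consensus caspase recognition sites and gave 3 embryo collections. The control line, sgg[isoD-DS-SFS], is otherwise wild type and also gave 3 collections. Both lines carry a DsRed fluorescent protein at the N terminus and a StrepII-Flag-StrepII tag inside the protein, so the controls are not untagged flies. Each line is a single edited stock, and the caspase-site changes cannot be told apart from any other difference between the stocks. The edited gene itself, on the X chromosome, was at 308, 303 and 307 CPM in mutant collections 1, 2 and 3, against 285, 308 and 314 CPM in control collections 1, 2 and 3. CPM are counts per 1000000 reads, with library sizes scaled by TMM (trimmed mean of M-values).

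The fourth chromosome is largely packaged as heterochromatin, carries the heterochromatin protein HP1a and histone H3 methylated on lysine along much of its length, and hardly recombines. Its genes are nevertheless transcribed in many tissues. A chromosome-specific RNA-binding protein, Pof, binds its active genes, and the methyltransferase Eggless (egg) methylates its histones. Many of its named genes act in the nervous system, among them the Pax6 genes ey and toy, the axon guidance receptors PlexA, PlexB and Eph, and several synaptic proteins.

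Libraries held 15160388 to 15641368 counted reads in the mutant line and 12646077 to 19454630 in the control line. Every one of the 40 genes had at least 58 reads in every library, so none sat near the floor of 3 counts. Together the 40 genes took 0.867% to 0.915% of the reads of a mutant library and 0.966% to 1.08% of a control library. The apolipophorin gene apolpp alone made up 41.5% to 46.3% of these reads in the mutant line and 49.9% to 53.0% in the control line. Without apolpp, the summed level was 4964 to 5166 CPM in the mutant line and 4810 to 5062 CPM in the control line, and these ranges overlapped.

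Of the 40 genes, 6 rose and 1 fell in the mutant line at an adjusted p under 0.05 in edgeR's quasi-likelihood test, which was fitted on all 10526 genes and adjusted over all of them. These 7 genes are 17.5% of the 40, beside 22.3% of all tested genes, so the share called was not above the background. The 6 that rose are 15.0%, beside 13.7% of all genes, and the 1 that fell is 2.5%, beside 8.67%. The genes that rose were Pur-alpha, RhoGAP102A, yellow-h, mGluR, Syt7 and Gat, by 1.28-fold to 1.67-fold. The gene that fell was apolpp, to 0.764 of the control level. Of these 7 genes, 3 were past a 1.5-fold difference, which is 7.50% of the 40 beside 10.6% of all tested genes, and 0 were past a 2-fold difference, beside 4.98% of all tested genes. Nearest to the threshold were Syt7, with an edgeR adjusted p of 0.0228, and on its other side the kinesin gene Kif3C, with an edgeR adjusted p of 0.0729.

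**Figure D1:**
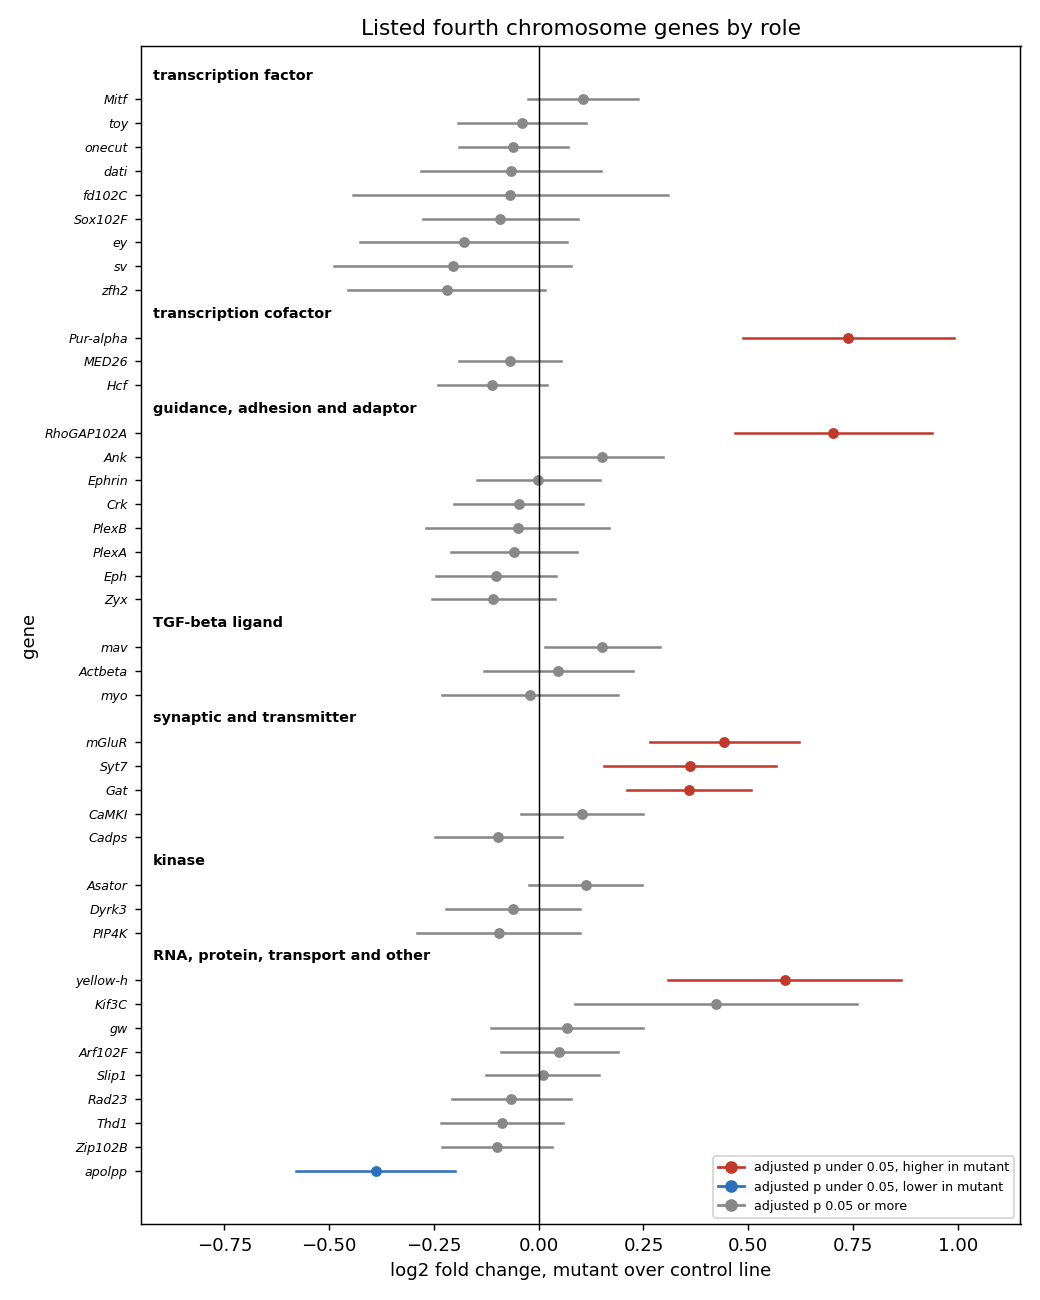
Log2 fold change of each of the 40 genes, mutant over control line (x axis), with genes grouped by role down the page. Points are edgeR estimates and lines their 95% intervals, which are not adjusted for the number of genes. The 6 red genes lie between 0.36 and 0.74, apolpp lies at -0.39, and the grey genes lie between -0.22 and 0.42.

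A shift shared by the whole group was not seen in the estimates. The median log2 fold change of the 40 genes was -0.05, with quartiles of -0.09 and 0.11, beside a median of -0.01 over all tested genes. The mean was 0.05 and so of the other sign, beside a mean of 0.07 over all tested genes. Estimates were above 0 for 16 genes and below 0 for 24, beside 5102 above and 5424 below among all tested genes. The 33 genes that did not pass the test had a median of -0.06. For 32 of these 33 genes, Kif3C being the exception, the 95% interval of the fold change lay inside 1.5-fold in either direction. The median size of the estimate, regardless of sign, was 0.10 for the 40 genes and 0.19 for all tested genes on the log2 scale. The collections of a line were also close to each other for these genes. The median SD of log2 CPM over 3 collections was 0.06 in the mutant line and 0.08 in the control line, beside 0.12 and 0.13 over all tested genes. The median gene of the 40 was also counted more often, at 112 CPM in the mutant line and 110 CPM in the control line, beside 27.2 and 26.3 CPM for all tested genes, and the part of read number in these SDs and estimates was not tested.

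The 40 genes are long. Their median span from first to last annotated base was 10939.5 bases, beside 2785 bases for all tested genes, and the median summed exon length was 4356 bases, beside 2054. Levels between genes are therefore compared per kilobase of annotated exon. On this scale the median gene of the 40 was at 24.7 CPM per kb in the mutant line and 23.7 CPM per kb in the control line, beside 12.2 and 11.9 for all tested genes. Of the 40 genes, 28 were at or above the all-gene median in the control line. The lipid carrier gene apolpp stood at the top with 336 CPM per kb in the mutant line and 439 in the control line. It was followed by the small GTPase gene Arf102F, with 121 CPM per kb in the mutant line and 117 in the control line. The lowest levels were those of Kif3C, with 2.35 CPM per kb in the mutant line and 1.75 in the control line, and of the forkhead gene fd102C, with 1.97 in the mutant line and 2.06 in the control line.

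**Figure D2:**
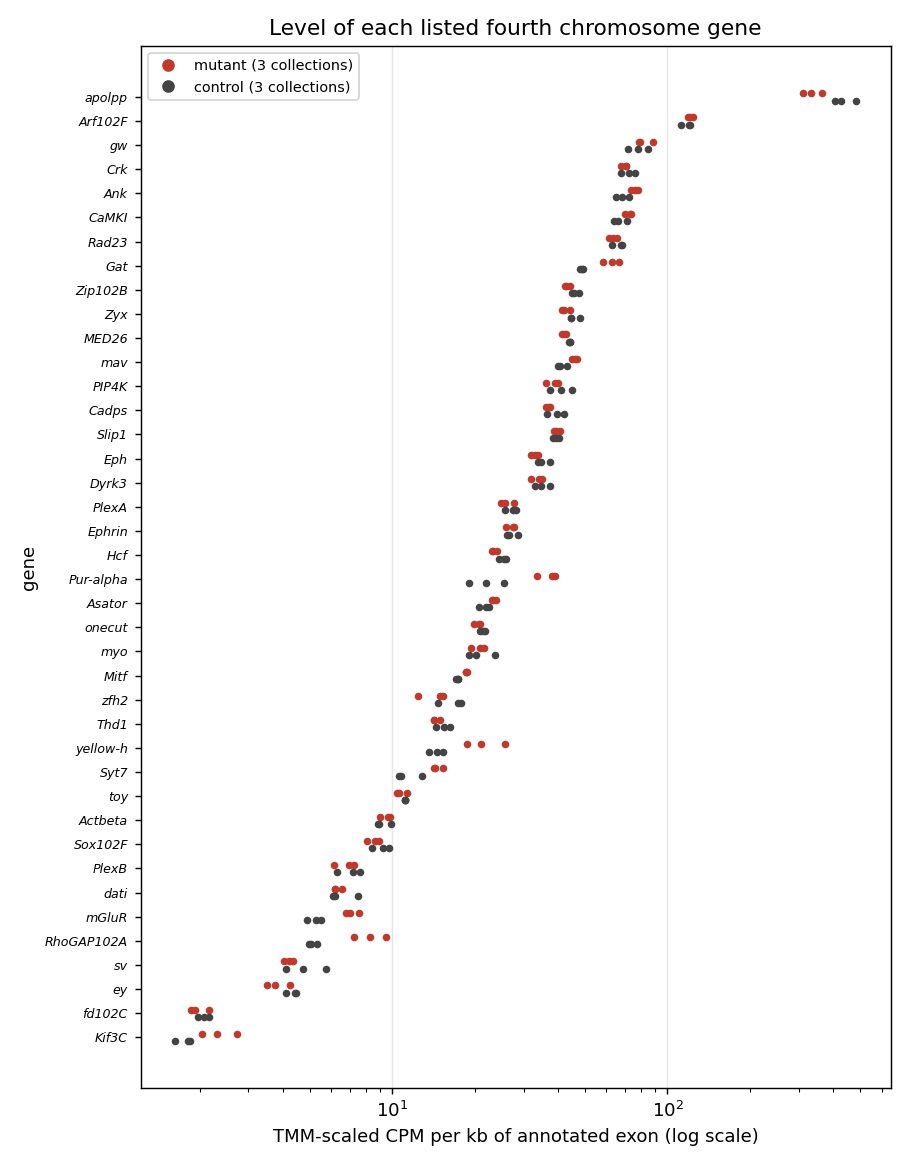
TMM-scaled CPM per kb of annotated exon on a log axis for each of the 40 genes, ordered by the control level, with 1 point per collection of the mutant line (red, upper row of a gene) and of the control line (dark, lower row). Levels run from about 2 for Kif3C and fd102C to 336 in the mutant line and 439 in the control line for apolpp, and for most genes the points of both lines lie close together.

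Of the 9 DNA-binding transcription factors, 0 passed edgeR's test in either direction, beside 22.3% of all tested genes. Of the 9, 0 had an unadjusted p under 0.05, a cut for which the share of all tested genes is not given here. The DESeq2 Wald test and limma-voom also called 0 of them, beside 2283 and 2406 of all 10526 tested genes. Their estimates ran from -0.22 for zfh2 to 0.11 for Mitf. Of the 9 estimates, 8 were below 0, beside 5424 of all 10526 tested genes. The Pax6 pair was close to level. The gene ey, which directs eye and brain development, was at 13.1, 13.9 and 15.8 CPM in mutant collections 1, 2 and 3, against 15.3, 16.5 and 16.6 CPM in control collections 1, 2 and 3. Its lines overlapped, with a log2 fold change of -0.18 (standard error, SE, 0.11, edgeR adjusted p 0.275). The gene toy, which acts upstream of ey, was at 41.6, 44.5 and 40.9 CPM in the mutant line, against 43.6, 43.4 and 43.5 CPM in the control line. Its control values lay inside the range of the mutant values, and the log2 fold change was -0.04 (SE 0.07, edgeR adjusted p 0.712). Per kb of exon, toy was at 10.8 CPM in the mutant line and 11.1 in the control line, above ey at 3.84 in the mutant line and 4.34 in the control line.

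The spread between collections differed among the other transcription factors. The zinc-finger homeodomain gene zfh2 was at 190.5, 154 and 185 CPM in mutant collections 1, 2 and 3, against 214, 182 and 220.5 CPM in control collections 1, 2 and 3, and the ranges overlapped (edgeR adjusted p 0.161). Exons of zfh2 and of the thymine DNA glycosylase gene Thd1 lie opposite each other over 2325 bases. Whether strand entered the counting is not given in the sources used here, so how reads of this stretch entered the counts of both genes is not known. The Pax2 relative sv was at 22.0, 22.6 and 21.1 CPM in the mutant line, against 30.0, 24.6 and 21.5 CPM in the control line, where control collection 1 was the highest. Mitf, a basic helix-loop-helix factor that controls lysosomal genes, was at 84.8, 84.9 and 85.6 CPM in the mutant line, against 79.4, 79.3 and 78.4 CPM in the control line. These groups did not overlap, but the difference of 0.11 on the log2 scale did not pass the test (edgeR adjusted p 0.220). The neural genes onecut, dati and Sox102F, a SoxD gene, differed by -0.06, -0.07 and -0.09 on the log2 scale. The gene fd102C, the least counted of the 40 with 66 to 76 reads in a mutant library and 58 to 94 in a control library, was at 4.45, 5.00 and 4.30 CPM in the mutant line, against 4.56, 4.80 and 5.03 CPM in the control line. Its lines overlapped, with a log2 fold change of -0.07.

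Among the 3 cofactors and nucleic acid binding proteins, only Pur-alpha passed edgeR's test and rose, or 33.3% beside 22.3% of all genes. Pur-alpha (FBgn0022361, chromosome 4, 558016 to 567257, forward strand, Ensembl release 115 annotation of BDGP6) encodes a protein that binds purine-rich single-stranded DNA and RNA. It was at 115, 112 and 99.4 CPM in mutant collections 1, 2 and 3, against 64.6, 74.9 and 56.0 CPM in control collections 1, 2 and 3. All mutant values lay above all control values. The rise was 1.67-fold, or 0.74 on the log2 scale (SE 0.11, edgeR adjusted p 0.00326). The host cell factor gene Hcf and the Mediator subunit gene MED26 were slightly lower, by -0.11 and -0.07 on the log2 scale, and neither passed the test. Their groups did not overlap, as for 17 of the 40 genes (11 higher, 6 lower) and for 41.9% of all tested genes.

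Of the 8 genes for guidance receptors, adhesion proteins and signalling adaptors, only RhoGAP102A passed edgeR's test, or 12.5% beside 22.3% of all genes. RhoGAP102A (FBgn0259216, chromosome 4, 254997 to 265574, forward strand) was at 52.2, 39.9 and 45.8 CPM in mutant collections 1, 2 and 3, against 27.8, 27.5 and 29.3 CPM in control collections 1, 2 and 3. The groups did not overlap, and the mutant collections were spread more widely, at 45.9 ± 6.15 CPM (SD, n = 3) against 28.2 ± 0.969 CPM (SD, n = 3) in the control line. The rise was 1.63-fold, or 0.70 on the log2 scale (SE 0.10, edgeR adjusted p 0.00306), the smallest among the 40 genes.

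The guidance receptors and their ligand were close to level in both lines. The semaphorin receptor gene PlexA was at 293, 264 and 273 CPM in mutant collections 1, 2 and 3, against 291, 274 and 299 CPM in control collections 1, 2 and 3. The second plexin, PlexB, was at 51.2, 43.3 and 49.1 CPM in the mutant line, against 53.7, 44.5 and 50.8 CPM in the control line. The lines overlapped for both plexins, with log2 fold changes of -0.06 and -0.05. The receptor tyrosine kinase gene Eph was at 190.3, 194 and 184 CPM in the mutant line, against 216, 195 and 199.6 CPM in the control line. Its groups were separated only narrowly, and the log2 fold change of -0.10 (SE 0.06) did not pass the test (edgeR adjusted p 0.281). Its ligand gene Ephrin was at 147, 146 and 137 CPM in the mutant line, against 152, 141 and 138 CPM in the control line, a log2 fold change below 0.01 in size with a 95% interval from -0.15 to 0.15. The SH2/SH3 adaptor gene Crk, the focal adhesion gene Zyx and the ankyrin gene Ank differed by -0.05, -0.11 and 0.15 on the log2 scale. Ank, whose protein links membrane proteins to spectrin, was at 489, 460 and 475 CPM in the mutant line, against 452, 403 and 427 CPM in the control line, and its edgeR adjusted p was 0.124.

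Of the 3 ligand genes of the TGF-beta family, 0 passed edgeR's test, beside 22.3% of all tested genes. The DESeq2 Wald test and limma-voom also called 0 of them, and only mav had an unadjusted p under 0.05. The gene mav (Maverick) was at 121, 126 and 125 CPM in mutant collections 1, 2 and 3, against 117, 108 and 110 CPM in control collections 1, 2 and 3. These values did not overlap, with a log2 fold change of 0.15 (SE 0.06, edgeR adjusted p 0.105). The gene myo (Myoglianin) was at 82.9, 85.6 and 76.9 CPM in the mutant line, against 94.1, 79.8 and 75.5 CPM in the control line. The activin gene Actbeta was at 35.4, 33.2 and 36.1 CPM in the mutant line, against 36.2, 32.8 and 32.5 CPM in the control line. The lines overlapped for myo and Actbeta, with log2 fold changes of -0.02 and 0.05. Per kb of exon the order was the same in both lines, mav at 45.9 CPM, myo at 20.6 and Actbeta at 9.51 in the mutant line, and 41.4, 20.9 and 9.22 in the control line.

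Of the 5 synaptic and transmitter genes, 3 rose in the mutant line, which is 60.0% of a small group drawn up with earlier results known, beside 13.7% of all tested genes. The metabotropic glutamate receptor gene mGluR (FBgn0019985, chromosome 4, 936819 to 949441, forward strand) was at 47.9, 43.2 and 44.5 CPM in mutant collections 1, 2 and 3, against 31.1, 33.5 and 34.9 CPM in control collections 1, 2 and 3. The groups did not overlap, and the log2 fold change was 0.44 (SE 0.08, edgeR adjusted p 0.00591). The gene Gat (FBgn0039915, chromosome 4, 629691 to 635350, forward strand) encodes the GABA transporter, which in flies works in glia. It was at 192, 182 and 169 CPM in the mutant line, against 143, 139 and 142 CPM in the control line. Its lowest mutant value was above its highest control value, and the log2 fold change was 0.36 (SE 0.06, edgeR adjusted p 0.00664).

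The synaptotagmin gene Syt7 (FBgn0039900, chromosome 4, 278685 to 306481, reverse strand), whose protein senses calcium at secretory membranes, was at 46.8, 50.5 and 47.3 CPM in mutant collections 1, 2 and 3. In control collections 1, 2 and 3 it was at 42.4, 35.5 and 35.0 CPM. The groups did not overlap, with control collection 1 nearest to the mutant line. The log2 fold change was 0.36 (SE 0.09, edgeR adjusted p 0.0228). Its call was lost in 5 of the 6 fits that left out a collection. The edgeR adjusted p was 0.0561, 0.0651 and 0.0664 without mutant collections 1, 2 and 3, and 0.0860 and 0.0683 without control collections 2 and 3. In these 6 fits its log2 fold change ran from 0.31 to 0.45. Over all genes, edgeR called 2350 with all libraries and from 1295 to 2146 with 1 left out. The part of the smaller number of libraries in the lost calls was not tested. Cadps, which primes dense-core vesicles for release, and the calcium/calmodulin-dependent kinase gene CaMKI did not pass the test, with log2 fold changes of -0.10 and 0.10.

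In RNA of whole embryos, more cells of a type and more RNA per cell cannot be told apart. Of 12 listed neuronal genes, 4 rose in edgeR's test (nSyb, Syt1, Gad1 and VGlut), which is 33.3% beside 13.7% of all tested genes. The 1 that fell (elav) is 8.33%, beside 8.67% of all tested genes. Of the 12 estimates, 9 were above 0 and 3 below. Those below were elav at -0.31, fne at -0.15 and Rbp9 at -0.05 on the log2 scale, fne and Rbp9 not past the threshold. The summed level of the list was 2096 to 2138 CPM in the mutant line and 2007 to 2091 CPM in the control line. Of 6 glial genes, 0 rose and 1 fell (gcm) in edgeR's test. The 1 that fell is 16.7%, beside 8.67% of all tested genes. At an unadjusted p under 0.05, 0 were higher and 3 lower, a cut for which the share of all tested genes is not given here. The DESeq2 Wald test and limma-voom called the same numbers as edgeR. The summed level of the glial list was 546 to 592 CPM in the mutant line and 556 to 601 CPM in the control line. The neuronal sums were separated only narrowly, with 2096 CPM as the lowest mutant sum and 2091 CPM as the highest control sum. The glial sums overlapped between the lines. No gene of either list was at 0. The part of these cell types in the rise of mGluR, Syt7 and Gat was not tested.

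**Figure D3:**
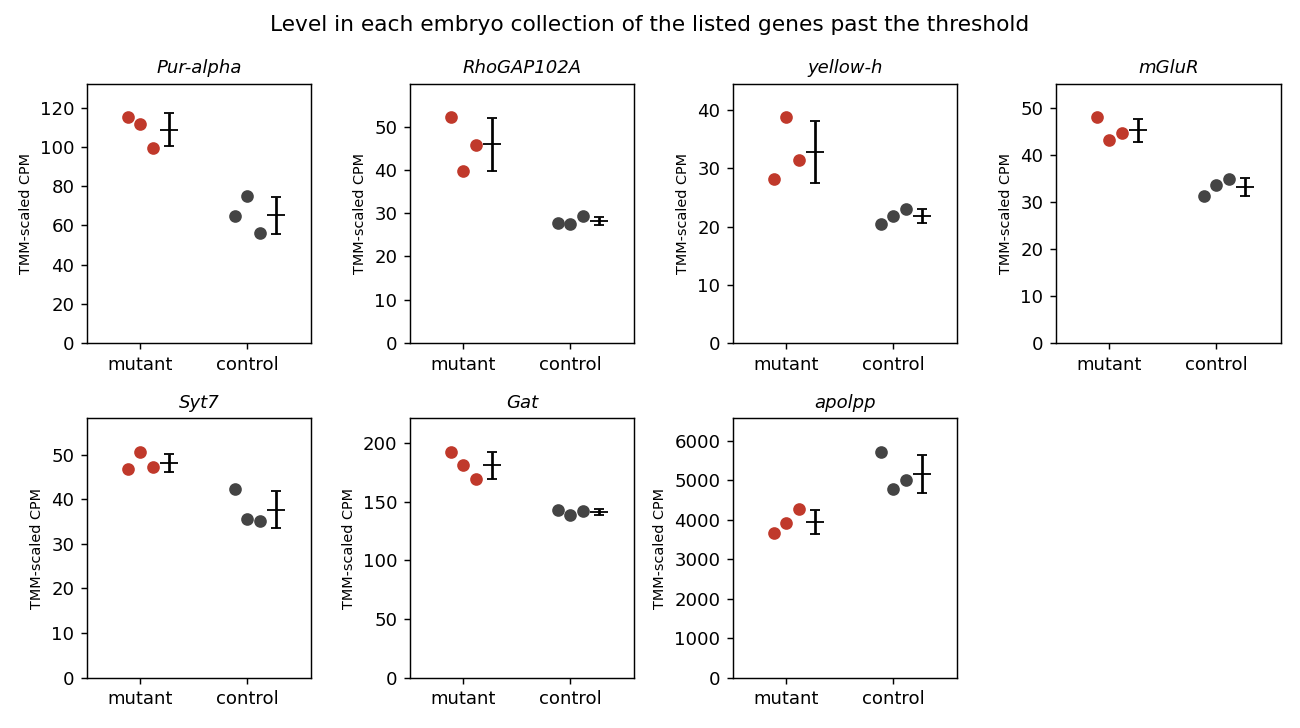
TMM-scaled CPM (y axis, from 0) in each collection of the mutant line (red, left) and control line (dark, right) for the 7 genes past the threshold, with mean and SD (n = 3) beside the points. In each panel the 3 mutant points lie on one side of the 3 control points, above for Pur-alpha, RhoGAP102A, yellow-h, mGluR, Syt7 and Gat, and below for apolpp.

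Of the 3 kinase genes, 0 passed edgeR's test, beside 22.3% of all tested genes. Asator belongs to the tau-tubulin kinases, Dyrk3 to the dual-specificity kinases and PIP4K to the phosphoinositide kinases. The DESeq2 Wald test and limma-voom also called 0 of these 3 genes, and 0 had an unadjusted p under 0.05. Their log2 fold changes were 0.11 for Asator, -0.06 for Dyrk3 and -0.10 for PIP4K. The remaining 9 genes act in RNA silencing, protein turnover, transport and other tasks. Of these 9, 2 passed edgeR's test, or 22.2% beside 22.3% of all tested genes. Most were expressed evenly. The gene gw, which encodes the GW182 protein of microRNA silencing and was second only to apolpp in CPM in both lines, was at 545, 485 and 489 CPM in mutant collections 1, 2 and 3, against 443, 482 and 524 CPM in control collections 1, 2 and 3, and the lines overlapped. The ubiquitin receptor gene Rad23, the thymine DNA glycosylase gene Thd1 and the zinc transporter gene Zip102B differed by -0.07, -0.09 and -0.10 on the log2 scale, and Arf102F and the potassium channel partner gene Slip1 by 0.05 and 0.01, none past the threshold. Kif3C had an estimate of 0.42 and groups that did not overlap, at 11.9, 10.1 and 8.87 CPM in the mutant line, against 8.02, 7.91 and 7.08 CPM in the control line. With 136 to 179 reads in a mutant library and 102 to 155 in a control library, its standard error was 0.15.

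The pair of genes in this last set that changed moved in opposite directions. The gene yellow-h (FBgn0039896, chromosome 4, 227922 to 230428, forward strand) belongs to the family of yellow, a gene of cuticle pigmentation. It was at 28.2, 38.8 and 31.5 CPM in mutant collections 1, 2 and 3, against 20.5, 21.9 and 23.0 CPM in control collections 1, 2 and 3. The groups did not overlap, with a log2 fold change of 0.59 (SE 0.12, edgeR adjusted p 0.0117). Its exons lie opposite those of asRNA:CR46065 over 182 bases, an RNA with 7 to 26 reads in a library.

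The gene apolpp (FBgn0087002, chromosome 4, 1060969 to 1077273, forward strand) encodes the precursor of the apolipophorins, which carry lipid in the blood of the fly and are made mainly by the fat body. It was at 3660, 3915 and 4273 CPM in mutant collections 1, 2 and 3, against 5717, 4784 and 5007 CPM in control collections 1, 2 and 3. All mutant values lay below all control values, at 3949 ± 308 CPM in the mutant line and 5169 ± 488 CPM in the control line (SD, n = 3 each). The log2 fold change was -0.39 (SE 0.08, edgeR adjusted p 0.0131). Exons of apolpp and Zyx lie opposite each other over 96 bases. Of 4 fat body genes listed as markers (Adh, Fbp1, Lsp1beta and Lsp2), all known best from larvae, 0 had enough reads to be tested. They had 0 to 9 reads in a mutant library and 0 to 5 in a control library, so they give no measure of the fat body here, and its part in the fall of apolpp was not tested.

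Calls in other marker lists are set beside the shares of all tested genes, 13.7% higher and 8.67% lower. Of 7 muscle genes, 5 rose (Mhc, Mlc1, up, Tm1 and Act57B), which is 71.4%, and 0 fell. The other 2 did not pass the test, Mef2 at -0.03 and sls at 0.10 on the log2 scale, and both overlapped between the lines. The summed level of the 7 was 24874 to 25307 CPM in the mutant line and 20224 to 22014 CPM in the control line. Of 7 blood cell genes, 2 rose (the collagen genes Col4a1 and vkg), which is 28.6%, and 0 fell. The summed level of the 7 was 5345 to 5906 CPM in the mutant line and 3537 to 4609 CPM in the control line. Col4a1 and vkg made up most of it, at means of 3435 and 1927 CPM in the mutant line and 2416 and 1446 in the control line. The other 5 did not pass the test. Of these, Hml, srp, crq and NimC1 had estimates above 0, and Pxn was at -0.18 on the log2 scale. Of 4 tested epidermal genes, 1 rose (Ddc) and 2 fell (ple and kkv), and grh, at -0.18 on the log2 scale, did not pass the test. Of 5 tested genes listed for earlier embryos, 0 rose and 2 fell (eve and kni). Whether these genes mark earlier embryos in these collections was not tested. The others went both ways, slam at 0.37, bcd at 0.35 and nos at -0.64 on the log2 scale. They overlapped between the lines, and none was past the threshold. These calls are from edgeR's test, and the part of the differences in the values of the 40 genes was not tested.

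Position along the chromosome was set beside the changes. Of all 87 tested genes of chromosome 4, 17 rose and 2 fell, so 21.8% were called, beside 22.3% of the genes on other chromosomes. Those that rose are 19.5% of the 87, beside 13.6% elsewhere (1420 genes). Those that fell are 2.3%, beside 8.73% elsewhere (911 genes). The other 47 tested genes of chromosome 4 had 11 genes higher (23.4%) and 1 lower (2.13%), beside 15.0% and 2.5% of the 40 genes. Their median log2 fold change was 0.08, beside -0.05 for the 40 genes. The differences between these shares and medians were not tested. Among the other 47, the called genes with the largest differences were CG1674, CG1909 and CG32850. CG1674 was at 411, 420 and 405 CPM in mutant collections 1, 2 and 3, against 273, 253 and 283 CPM in control collections 1, 2 and 3, a log2 fold change of 0.61 (SE 0.06, edgeR adjusted p 0.00104). CG1909 rose by 0.50 and CG32850 fell by 0.45 on the log2 scale, with edgeR adjusted p of 0.00968 and 0.0112.

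The genes that changed were not all next to each other. The 7 called genes have 13 different tested genes directly beside them. Of these 13, 2 were called, CG1674 and NfI, both higher, beside 21.8% called among all tested genes of chromosome 4. CG1674 and NfI lie in a stretch of 6 neighbouring tested genes, in the order yellow-h, CG1674, dpr7, RhoGAP102A, NfI and Syt7. All 6 estimates in this stretch were above 0, at 0.59, 0.61, 0.14, 0.70, 0.24 and 0.36 on the log2 scale, and dpr7 did not pass the test (edgeR adjusted p 0.222). The stretch was picked after its values were seen and was not tested as a unit. On its far side Rad23 was at -0.07, and before it CG31999 was at 0.11, neither past the threshold. Pur-alpha, mGluR, Gat and apolpp each lay between neighbours that did not pass the test.

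**Figure D4:**
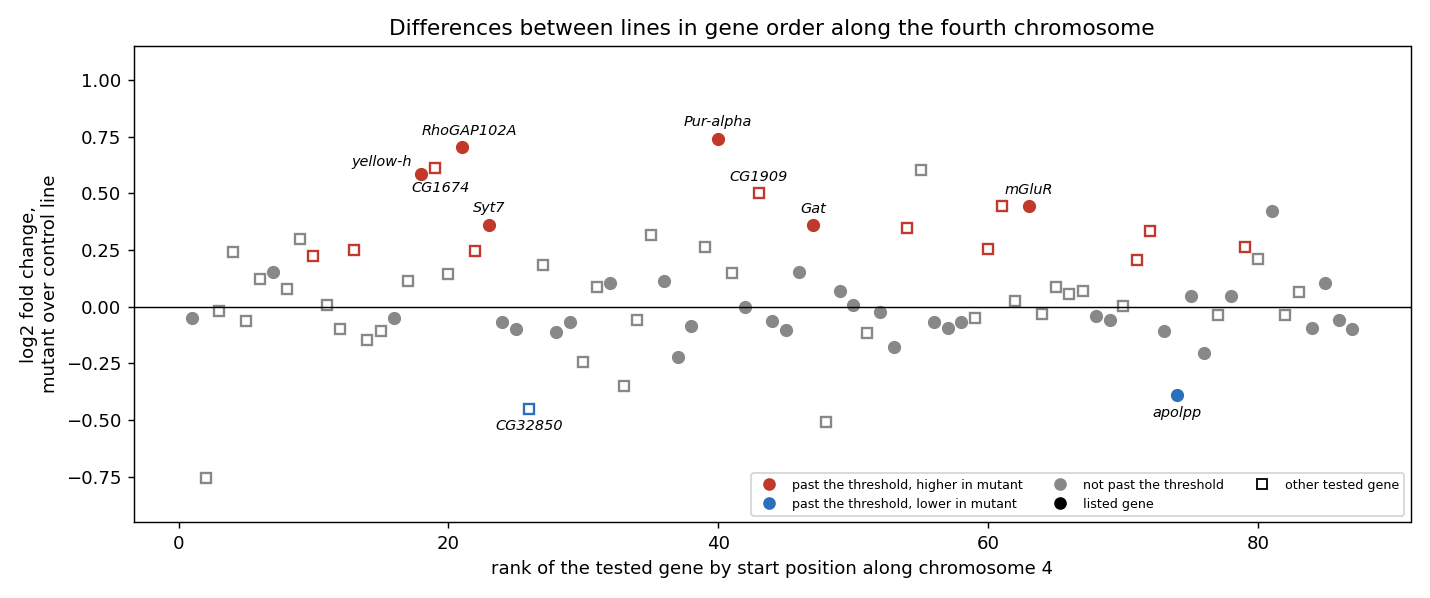
Log2 fold change, mutant over control line (y axis), of the 87 tested genes of chromosome 4 in order of start position (x axis, rank). Filled circles are the 40 genes and open squares the other 47 genes, red for genes that rose, blue for genes that fell and grey for the rest. The red points lie across the chromosome, with yellow-h, CG1674, RhoGAP102A and Syt7 near rank 20.

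A list of 12 chromatin genes, drawn up for the fourth chromosome, was examined, and all 12 were tested. Whether the protein of each gene acts on chromosome 4 was not tested. In edgeR's test 2 fell, which is 16.7% of the list beside 8.67% of all genes, and 0 rose, beside 13.7% of all genes. At an unadjusted p under 0.05, 3 were lower and 0 higher, and the DESeq2 Wald test and limma-voom called the same numbers as edgeR. Its median log2 fold change was -0.15. The RNA-binding protein gene Pof was at 11.1 ± 1.44 CPM in the mutant line and 15.3 ± 0.984 CPM in the control line (SD, n = 3 each), which is -0.47 on the log2 scale (SE 0.13, edgeR adjusted p 0.0296). The HP1a gene was at 71.1 ± 8.38 CPM in the mutant line and 90.0 ± 6.12 CPM in the control line (SD, n = 3 each), which is -0.34 on the log2 scale (SE 0.10, edgeR adjusted p 0.0370). Neither call held without mutant collection 1 (edgeR adjusted p 0.0629 for Pof and 0.0700 for the HP1a gene), without mutant collection 3 (0.0873 and 0.0945), without control collection 2 (0.0706 and 0.109) or without control collection 3 (0.0799 and 0.0557). With a library left out, the log2 fold change ran from -0.55 to -0.38 for Pof and from -0.42 to -0.26 for the HP1a gene. Fewer genes were also called over all genes in these fits, as given above for Syt7. The histone methyltransferase genes egg, Su(var)3-9 and G9a and the cofactor gene wde differed by -0.04, -0.23, -0.01 and -0.11 on the log2 scale, none past the threshold. Of the 12 estimates, 10 were below 0 and 2 above, Hmr at 0.03 and Lhr at 0.24, neither past the threshold.

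The authors' deposited table, which gives limma-voom results with the control line over the mutant line, calls the same 7 of the 40 genes at an adjusted p under 0.05 and in the same directions, beside 22.6% of all genes in it. In the authors' deposited table the log2 fold change, control over mutant, is -0.75 for Pur-alpha, -0.69 for RhoGAP102A and 0.38 for apolpp. In the same table Kif3C has an adjusted p of 0.0712 and is not called.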

How the data were processed

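RNA was sequenced from 6 libraries, 3 embryo collections of each line, grouped by their titles. Per the labels' protocols, each library took 100 ng of total RNA through poly(A) selection, a directional kit and 12 PCR cycles, and read from one end. The submitters' processing notes name TopHat2 2.1.1, Bowtie2 2.3.4.0, edgeR 3.14.0 and limma 3.28.21; the build, the annotation and whether counting used the strand are not given in the sources used here. The authors deposited whole-number counts per gene, not normalised, and 0 columns were left unmatched. Their comparison table, limma-voom by its name, repeats those counts and, per the file headers, gives log2 CPM, a log2 fold change, a moderated t and a log-odds score, and p-values for control over mutant.

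Genes were kept by edgeR 4.0.16 filterByExpr (minimum count 10, minimum total 15), which left the same 10526 genes as the authors' table. Counts were TMM-scaled and tested with glmQLFit and glmQLFTest (R 4.3.3), mutant over control, two-sided, with Benjamini-Hochberg adjustment over all genes and a threshold of 0.05. The standard error is the log2 fold change divided by the square root of F, and 95% intervals use the test's total degrees of freedom. The code was tested on simulated counts. The labels call the collections independent, and p-values set the difference between the lines against the spread between collections. Each line being a single stock, spread between stocks is not covered. The 95% intervals also rest on that spread, whereas the floor of 3 counts covers counting error only, since reads without molecular identifiers include PCR copies. Positions, spans and union exon lengths come from the Ensembl release 115 annotation of BDGP6, matched by gene ID for 40 of 40 genes. Exons of 9 of the 40 genes overlap another counted gene, always on the opposite strand.

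The 40 genes, their roles and the lists (chromatin of the fourth chromosome, neuron, glia, muscle, hemocyte, fat body, epidermis, early embryo) were chosen with earlier results of these data known. Named with values in every library are the genes past the threshold, the most and least counted genes, the pairs and families, and genes whose call changes under an alternative; sv, Mitf and Ank were added after their values were seen. The alternatives were scaling by upper quartile, by DESeq2 size factors or by library size alone, a filter of 1 CPM in 3 libraries or none, limma-voom (limma 3.58.1), the Wald test of DESeq2 1.42.0, the replicate number as a block, thresholds of 0.01 and 0.1, and leaving out each library. Genes svb and sry-alpha had no row under these symbols.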

Additional observations from a re-analysis of the deposited data

How the results depend on the processing

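The 40 genes gave 560 estimates under 14 alternative fits, of which 539 kept their direction and their side of the threshold. The number of the 40 genes called higher was 6 under the other scalings, filters and tests, ran from 5 to 6 when a library was left out, and was 4 at a threshold of 0.01 and 7 at 0.1. The number called lower was 1 except with the replicate number as a block, where it was 2, and at a threshold of 0.01, where it was 0. With the block zfh2 also passed (log2 fold change -0.22, edgeR adjusted p 0.04995), and the chromatin list had 1 gene lower, since Pof was lost (edgeR adjusted p 0.0617). Deviations of equally numbered libraries from their line means correlated at -0.0184, -0.0188 and 0.0102 across genes, and those of unequally numbered libraries at -0.104 to 0.126. With deviations taken from means of 3 libraries, these values cannot decide whether collections were paired. The chromatin list had 0 genes lower at a threshold of 0.01 and from 0 to 3 when a library was left out. The median log2 fold change of the 40 genes was -0.0706 with upper-quartile scaling and -0.0895 with library size alone, where the median of all genes was -0.031 and -0.0514, and it ran from -0.062 to -0.012 when a library was left out.

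Estimates changed sign 15 times, for 6 genes, none of them called in either fit. Slip1 turned to -0.0118 with upper-quartile scaling and -0.0315 with library size alone, and Ephrin to 0.0013 with the filter of 1 CPM and 0.0011 with limma-voom. When a library was left out, Slip1 ran from -0.0223 to 0.0228, Ephrin from -0.0341 to 0.0366, PlexB from -0.14 to 0.0155, myo from -0.0914 to 0.0728, gw from -0.0035 to 0.124 and dati from -0.13 to 0.0318. The causes were not tested. Of the 40 genes, fd102C and Kif3C had the fewest reads and the widest intervals, and the part of depth in these widths was not tested.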
